A study of Mus musculus with 16 samples.

Results

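The peaks of acetylated and of trimethylated lysine 27 of histone H3 (H3K27ac and H3K27me3) in primary mouse macrophages that had received no stimulus were compared along the genome. The members were all peaks of H3K27ac and of H3K27me3 on chromosomes 1 to 19 and X, 51582 and 88037 regions, of 369162 peaks in all 9 lists of the series. Both libraries came from wild-type C57BL/6 bone marrow cultured for 5 days in medium conditioned with M-CSF, the growth factor that drives the macrophage lineage. Neither library had been given LPS or nigericin, and the labels give no sex for the animals. The series holds 16 samples of chromatin immunoprecipitation with sequencing (ChIP-seq), 9 immunoprecipitations and 7 inputs, and also maps EZH2, p53 and SIRT1. Each mark has 1 library, so no difference between the marks has a replicate check, no p-value is given, and every interval below is a Wilson 95% interval that covers counting error only. The depth of the libraries is unknown here.

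H3K27ac is laid down by the acetyltransferases p300 and CBP and marks active promoters and enhancers. H3K27me3 is written by EZH2 within a Polycomb complex and spreads over silent developmental genes and over the inactive X chromosome of female cells. A single H3 tail can carry only 1 of these modifications at lysine 27. Tails of a nucleosome, copies of a chromosome and cells of a population can differ, so peaks of both marks can still overlap. The order and spacing of the peaks describe where each mark was found along the genome.

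Reference promoter sequences (RefSeq, GRCm38.p6) from macrophage genes under H3K27ac and from developmental genes under H3K27me3 are shown first, since CpG content is compared between the marks in the results that follow. Each covers the 250 bases before the listed start, and capitals mark the CpG dinucleotides. Lyz2 encodes lysozyme and Cebpb a transcription factor of myeloid cells, and both windows lay under H3K27ac. Olig2 encodes a factor of oligodendrocyte and motor neuron fate and Hoxa9 a homeobox factor of axial patterning, and both windows lay under H3K27me3.
Lyz2 (chr10:117282273-117282522, minus strand): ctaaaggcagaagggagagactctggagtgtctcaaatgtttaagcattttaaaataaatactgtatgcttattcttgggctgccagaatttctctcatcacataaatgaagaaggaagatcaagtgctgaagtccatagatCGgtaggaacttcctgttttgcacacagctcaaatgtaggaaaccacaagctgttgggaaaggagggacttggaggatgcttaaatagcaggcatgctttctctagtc
Cebpb (chr2:167688665-167688914, plus strand): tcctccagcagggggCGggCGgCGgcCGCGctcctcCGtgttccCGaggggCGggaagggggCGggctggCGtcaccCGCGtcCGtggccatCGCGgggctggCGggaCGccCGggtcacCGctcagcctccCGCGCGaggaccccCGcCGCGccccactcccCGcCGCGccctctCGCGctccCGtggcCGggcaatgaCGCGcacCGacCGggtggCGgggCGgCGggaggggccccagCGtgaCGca
Olig2 (chr16:91225300-91225549, plus strand): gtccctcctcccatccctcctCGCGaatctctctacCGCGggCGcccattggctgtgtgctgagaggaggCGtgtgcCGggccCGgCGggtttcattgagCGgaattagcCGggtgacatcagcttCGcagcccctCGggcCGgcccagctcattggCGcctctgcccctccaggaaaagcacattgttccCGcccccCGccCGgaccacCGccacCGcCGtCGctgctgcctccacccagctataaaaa
Hoxa9 (chr6:52227371-52227620, minus strand): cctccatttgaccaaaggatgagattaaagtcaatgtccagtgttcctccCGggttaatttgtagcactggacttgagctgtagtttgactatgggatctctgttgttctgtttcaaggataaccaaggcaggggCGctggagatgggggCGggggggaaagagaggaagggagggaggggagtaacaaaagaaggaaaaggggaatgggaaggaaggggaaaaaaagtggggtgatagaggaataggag
The Lyz2 window held 1 CpG and the Cebpb window 41. The Olig2 window held 22 and the Hoxa9 window 3, so each mark covered promoters both poor and rich in CpG.

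MicroRNA genes also lay under either mark, though most lay under neither. Of 1005 hairpins, 99 (9.85%) lay under H3K27ac, 110 (10.9%) under H3K27me3 and 1 under both. The marks covered 2.77% and 4.72% of the sequence. Mature sequences of some hairpins are given with the seed, bases 2 to 8, in capitals. They were chosen after their values were seen and do not stand for all hairpins. For example, miR-141 and miR-200c also lay under H3K27ac (2.58-fold), and miR-125a and let-7e under H3K27me3 (5.74-fold). The first 3 are known from myeloid cells and lay under H3K27ac, and the last 3 lay under H3K27me3.
miR-142a-3p: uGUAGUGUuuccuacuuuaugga
miR-21a-5p: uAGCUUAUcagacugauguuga
miR-223-3p: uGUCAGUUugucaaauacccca
miR-196a-5p: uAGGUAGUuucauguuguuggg
miR-196b-5p: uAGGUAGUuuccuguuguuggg
miR-9-5p: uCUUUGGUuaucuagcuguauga
The miR-142 hairpin lay under an H3K27ac peak of 5.83-fold, miR-21a under one of 4.75-fold and miR-223, on chromosome X, under one of 3.76-fold. Fold here is the authors' enrichment of the summit over local background, and it describes a peak within its own list. The seed AGGUAGU is shared by the 3 miR-196 genes, and all 3 lay under H3K27me3, within the HoxA (12.2-fold), HoxB (12.8-fold) and HoxC (11.4-fold) clusters. The 3 genes of the neuronal miR-9 share the seed CUUUGGU and lie on chromosomes 3, 7 and 13. All 3 lay under H3K27me3, at 6.83-fold, 10.4-fold and 7.34-fold. The hairpin of miR-10b in the HoxD cluster lay under 10.6-fold H3K27me3.

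The labelled cell type was checked against 10 macrophage markers. All 10 had an H3K27ac peak within 1 kb of a gene end and none had H3K27me3 there, against 17.8% and 20.9% of all 49550 genes. Among coding genes the shares were 26.6% and 25.7%. The markers were chosen with earlier results of these data known, so this is not an independent check. In a wider list of 25 macrophage receptors and markers, 23 had H3K27ac, 2 of them with H3K27me3 as well, and 2 had neither mark. Csf1r, the M-CSF receptor, reached 7.87-fold, Spi1, which encodes the lineage factor PU.1, 10.8-fold, and Adgre1, which encodes F4/80, 3.75-fold. Of 14 neutrophil genes 3 had H3K27ac, of 20 lymphoid genes 3, of 13 erythroid genes 1 and of 20 stromal genes 4. H3K27me3 was at 3 of the 14 neutrophil, 14 of the 20 lymphoid, 6 of the 13 erythroid and 11 of the 20 stromal genes. The H3K27ac shares of the neutrophil (21.4%) and stromal (20%) lists thus lay between the 17.8% of all genes and the 26.6% of coding genes. Neither mark was at 8 of the 14 neutrophil, 3 of the 20 lymphoid, 7 of the 13 erythroid and 7 of the 20 stromal genes. Elane, Camp and Ngp of neutrophils, Gata1 of erythroid cells and Cd8a of T cells had no base of the body under either mark and no peak at an end. They were named after their values were seen and do not stand for their lists.

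H3K27me3 occupied more sequence than H3K27ac, in more peaks, and the marks hardly met. H3K27ac covered 2.77% of the sequence of these 20 chromosomes and H3K27me3 covered 4.72%. Together they covered 196 Mb, or 7.45%, and only 1.15 Mb lay under both. That shared sequence was 1.58% of the H3K27ac bases and 0.924% of the H3K27me3 bases. Of the H3K27ac peaks, 1732 (3.36%, 3.21 to 3.52) touched an H3K27me3 peak. Of the H3K27me3 peaks, 1665 (1.89%, 1.80 to 1.98) touched H3K27ac. With only peaks of a −log10 q of at least 5, 1.09% of H3K27ac peaks touched H3K27me3.

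Typical peaks of both marks, as called, were short and alike in width, and the marks differed in their widest regions. Called peaks often lay close together. Of neighbouring H3K27ac peaks 46.1% were within 1 kb of each other, and of H3K27me3 peaks 49.1%. Joining peaks within 5 kb left 13100 and 16745 domains. A broad region can thus be split into several peaks, and widths, peak numbers, gaps and run lengths here describe the lists as called. Median width was 789 bp for H3K27ac (25th to 75th percentile 475 to 1521) and 727 bp for H3K27me3 (450 to 1388). The order of these medians depended on the list: in lists of equal length, taking the 51582 highest H3K27me3 peaks by q, the H3K27me3 median was 1102 bp. At the other end, 64 H3K27ac peaks and 224 H3K27me3 peaks reached 20 kb, and 1 and 21 reached 50 kb. Peaks of 5 kb or more made up 4.15% of H3K27ac peaks and held 25.3% of its bases. For H3K27me3 they made up 4.41% of peaks and held 30.3% of bases. Fold went up with width in both lists. The median fold was 2.99 in H3K27ac peaks under 0.5 kb and 5.56 in those of 10 kb or more, and for H3K27me3 it was 3.21 and 8.48. Width and fold of a peak come from the same reads, so this is a description of the lists.

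Of the 5 widest peaks of each mark, some held known genes and others no coding gene with a formal symbol. The widest H3K27me3 peak, chr15:102904914-103045369, measured 140456 bp at 11.4-fold and enclosed HoxC genes, among them Hoxc13, Hoxc9 and Hoxc4, together with the long non-coding RNA gene Hotair. The next by width, chr7:144389488-144475336, spanned 85849 bp across the gene of the actin-binding protein cortactin (Cttn) and part of the synaptic scaffold gene Shank2. The widest H3K27ac peak, chr4:132586629-132636630, was 50002 bp long at 7.55-fold and held no coding gene with a formal symbol. Others among the 5 widest H3K27ac peaks lay at Zmiz1 (42652 bp), at Plekho2 (37820 bp) and at Tfeb (36623 bp), which encodes the master transcription factor of lysosomal genes. The highest fold of the H3K27me3 list, 23.3, belonged to a peak of 69283 bp that holds the repeated 5S ribosomal RNA genes beside Gas8, where reads cannot be assigned to copies with certainty.

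Joining peaks of a mark that lay within 1 kb of each other gave 30044 H3K27ac and 47162 H3K27me3 domains. The widest acetylated domain was 157 kb on chromosome 11 and held no coding gene with a formal symbol. A domain of 149 kb held Dusp1, the phosphatase that limits MAP kinase signalling, and Ergic1, and one of 99.3 kb lay in Lpp. The widest H3K27me3 domain was 251.4 kb at HoxC. Others held Chst15 (224 kb), the kidney and head organizer gene Lhx1 (203 kb), the HoxB cluster (182 kb) and the hindlimb gene Pitx1 (173 kb). A domain of 203 kb in the major histocompatibility region held Pou5f1, the pluripotency gene encoding OCT4, with the class I genes H2-Q6, H2-Q7 and H2-Q10, a family of near-identical copies.

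H3K27ac lay mainly inside genes, and H3K27me3 was shared more evenly between genes and distal sequence. Gene bodies of all annotated genes make up 47.2% of the sequence. They held 68.2% of the bases under H3K27ac and 55.5% of those under H3K27me3. Summits more than 1 kb outside every gene, called distal here, were 28.3% (27.9 to 28.7) of H3K27ac peaks and 43.4% (43.0 to 43.7) of H3K27me3 peaks, where 50.4% of all sequence is distal. Summits within 1 kb of a gene end were 14.99% of H3K27ac and 10.7% of H3K27me3 peaks, and such sequence is 6.16% of the total. The remaining 56.7% of H3K27ac summits and 46.0% of H3K27me3 summits lay deeper inside genes. The distal share of H3K27me3 fell with peak width, from 46.1% of peaks under 0.5 kb to 24.98% of peaks of 10 kb or more. For H3K27ac it stayed between 27.1% and 28.6% in every width class.

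Along 13366 coding genes of at least 5 kb whose direction is known, none of them on chromosome 18, both marks were densest at the start. The mean share of bases under H3K27ac was 5.20% at 10 kb before the start, 13.2% in the first 5% of the gene and 4.25% in the last. H3K27me3 went from 9.54% to 13.8% and then to 7.18%. Its maximum of 13.9% lay in the kilobase before the start, where H3K27ac covered 8.73%. A peak lay within 1 kb of the start in 26.8% of these genes for H3K27ac and 21.8% for H3K27me3, and within 1 kb of the 3′ end in 8.23% and 12.5%. Of genes with the mark at the start, 17.2% carried H3K27ac at the 3′ end too, and 37.5% carried H3K27me3.

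**Figure D1:**
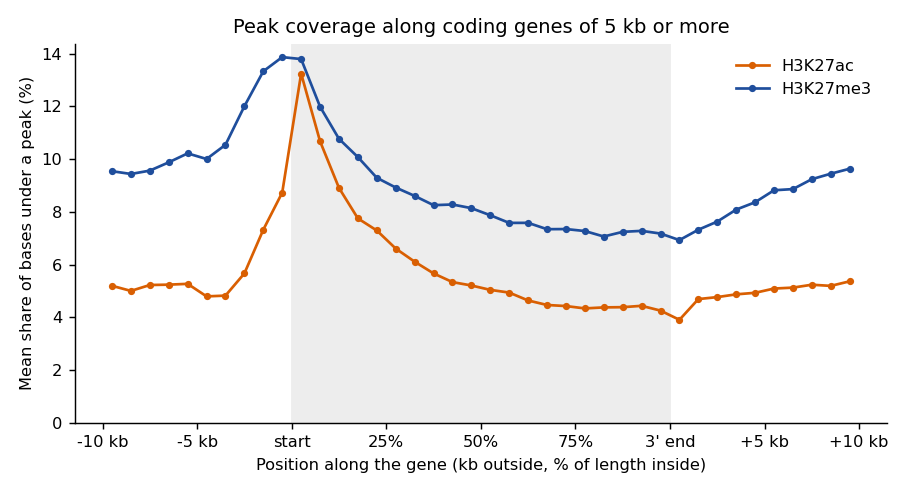
Mean share of bases under H3K27ac (orange) and H3K27me3 (blue) peaks, on the y axis in percent, along 13366 coding genes; the x axis gives kilobases outside the gene and percent of its length inside (shaded). H3K27ac peaks just inside the start at 13.2%, while H3K27me3 is highest in the kilobase before it at 13.9%.

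The starts of coding genes fell into separate classes. With a window of 1 kb either side of the listed starts, 4307 of 17273 coding genes (24.9%) had H3K27ac only, 3572 (20.7%) had H3K27me3 only, 156 (0.903%) had both and 9238 (53.5%) had neither. Of 9520 long non-coding RNA genes, 14.04% had H3K27ac only and 18.8% H3K27me3 only. H3K27ac often flanked the start without covering it. Of 5479 starts with H3K27ac within 1 kb, 46.9% (45.6 to 48.2) had a peak on the 300 bp promoter window itself, from 250 bases before to 50 after the start. For H3K27me3 it was 74.5% of 4447 (73.2 to 75.7). In promoters with an observed over expected CpG ratio above 0.6, a usual mark of a CpG island, the shares were 40.0% and 71.3%.

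Promoter windows under the marks differed in CpG content. The median observed over expected CpG ratio was 0.692 in the 2550 windows under H3K27ac only, 0.532 in the 3291 under H3K27me3 only and 0.574 in all 21036. The share under H3K27me3 was highest, 23.96%, in windows with a ratio of 0.4 to 0.6, and fell to 7.99% at a ratio of 1 or more. H3K27ac was at 7.28% of windows with a ratio under 0.2 and at 17.1% of those at 1 or more. GC content was close in both classes, with medians of 60% and 59.3%. The ETS core GAGGAA, part of the sites PU.1 binds, was found on either strand in 31.8% of H3K27ac windows, 26.3% of H3K27me3 windows and 27.2% of all windows. The motif CCAAT, bound by NF-Y, was in 25.8%, 33.3% and 38.5%. The TATA box letters TATAAA were in 8.59%, 10.6% and 12.7%. A match of letters is not a bound site.

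**Figure D2:**
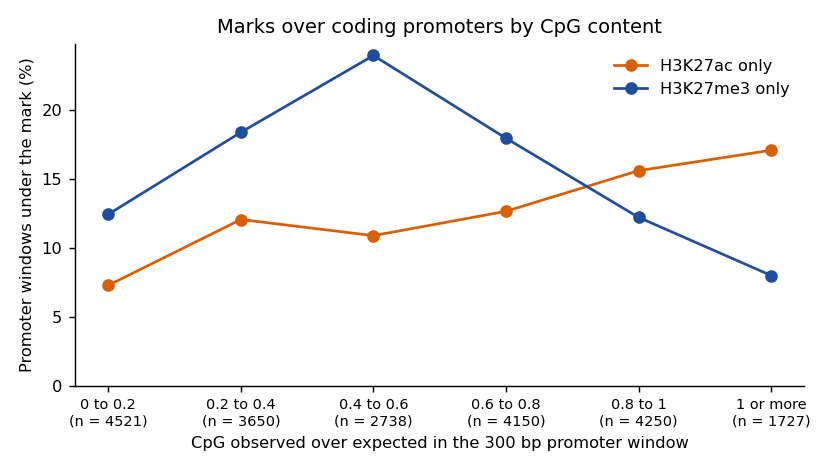
Share of coding promoter windows of 300 bp under H3K27ac only (orange) or H3K27me3 only (blue), in percent on the y axis, by observed over expected CpG ratio on the x axis, with the number of windows in each class. H3K27me3 is highest at 23.96% in the class from 0.4 to 0.6 and H3K27ac at 17.1% in the class of 1 or more.

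Several of the chosen gene groups lay mostly under H3K27ac or mostly under H3K27me3, and others were split or carried neither mark. Counts below are of genes with a peak within 1 kb of an end, beside 17.8% of all genes for H3K27ac and 20.9% for H3K27me3. Of coding genes 26.6% and 25.7% had the marks there. The lists were chosen with earlier results of these data known. Of 25 macrophage transcription factor genes, 22 had H3K27ac at a median of 5.64-fold, against a median of 3.50 over all genes with the mark. The highest were Spi1 (10.8), the repressor gene Zeb2 (9.99), Etv3 (9.30) and the interferon regulatory factor gene Irf5 (9.22). Only Egr2 among them had H3K27me3 (3.05), beside H3K27ac. Of 25 genes of macrophage receptors and markers, 23 had H3K27ac, led by the pore-forming Mpeg1 (7.98). In that list Cd63 (10.8) and the Fc receptor gene Fcgr3 (9.74) had H3K27me3 beside H3K27ac. Of 25 lysosome and autophagy genes 22 had H3K27ac, led by those of the proteases cathepsin D (Ctsd, 10.2) and cathepsin Z (Ctsz, 7.61). No gene of the lysosome list had H3K27me3.

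Genes that respond to infection were acetylated at their ends in these unstimulated cells. All 20 interferon response genes had H3K27ac and none H3K27me3, with Trim25 at 6.04-fold and the antiviral genes Rsad2 at 5.34 and Oas1a at 4.86. Of 25 LPS and NF-κB response genes, 19 had H3K27ac, among them Nfkb1 (7.77) and the chemokine genes Ccl3 and Ccl4 (both 4.98, under a shared peak at chr11:83644746-83649408). Il12b, Ccl2, Ptgs2, Nos2 and Icam1 had neither mark at an end, though H3K27me3 covered 64.2% of the body of Nos2, which encodes inducible nitric oxide synthase, and H3K27ac 3.41% of that of Icam1. Nfkb2 had H3K27me3 only (8.41), in a peak that begins beyond its 3′ end. Of 18 inflammasome and pyroptosis genes 14 had H3K27ac, including the ATP receptor gene P2rx7 (6.23), Ninj1 (4.93), Nlrp3 (4.86) and Mefv (4.67), while the DNA sensor gene Aim2 had H3K27me3 (4.94). Il1b had H3K27ac of 2.22-fold. Ribosomal protein genes were acetylated in 21 of 25, at a lower median of 2.61-fold.

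Patterning genes were methylated. H3K27me3 lay at 38 of 39 Hox genes, at a median of 11.4-fold where all genes with the mark had 4.75, and covered the whole body of the median member. Hoxb13 was highest at 15.6-fold. Hoxb4 was the only member with H3K27ac (2.68) and the only one without H3K27me3 at an end. All 48 neural patterning genes had H3K27me3, with Lmx1b (14.3), Neurod2 (14.1) and Olig2 (13.3) among the highest, and so did all 47 genes of mesoderm and endoderm factors, led by Gata4 (16.6), Tbx4 (14.1), Tbx2 (13.9) and Nkx2-5 (13.3), factors of heart and limb development. In these 3 lists together, H3K27ac was found at Hoxb4 and Lhx2 (3.25) alone. Of 20 lymphoid genes, 14 had H3K27me3, with the B cell factor gene Pax5 at 10.9 and the T cell factor genes Gata3 at 9.68 and Tcf7 at 8.15.

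Large families expressed in other tissues often carried neither mark. Of all 49550 genes, 31108 (62.8%) had neither mark at an end, and of 21627 coding genes 10803 had neither. Of 1428 olfactory receptor genes, 13 had H3K27ac, 75 had H3K27me3 and 1340 had neither. Of 359 vomeronasal receptor genes 357 had neither, and of 383 immunoglobulin segments 382. Keratin genes differed, with H3K27me3 at 34 of 55. Among 30 genes of synapses and neuronal channels, 14 had H3K27me3, such as Slc17a7, the vesicular glutamate transporter (13.9), and Grin1 (11.6). The other 16 had neither, a share close to that of coding genes. Among 25 genes of Polycomb and H3K27 enzymes, 11 had H3K27ac, 7 had H3K27me3, 1 of them both, and 8 had neither. The acetyltransferase gene Ep300 had H3K27ac (6.36). The Polycomb reader genes Cbx8 (10.7), Cbx2 (7.24) and Cbx7 (5.68) had H3K27me3, and Ezh2 itself had neither. Bmi1 carried both, with H3K27ac of 3.0-fold and H3K27me3 of 4.10-fold.

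Some genes were covered from end to end. Among coding genes of at least 10 kb, H3K27ac covered the whole of F7, which encodes coagulation factor VII, and of Ctsk, which encodes the protease cathepsin K. It covered 97.9% of Adap2, 97.4% of Cd300a and 95.9% of Siglec1, an adhesion receptor of macrophages. H3K27me3 covered the whole of Cttn, Bcar1, Atoh8, Prdm12, Hoxc4 and other genes. On the autosomes, 370 of 13320 such genes (2.78%) had more than 50% of the body under H3K27ac and 688 (5.17%) under H3K27me3.

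Chromosome X stood apart from every autosome in both marks, in opposite directions. H3K27me3 covered 16.9% of X and between 1.92% (chromosome 3) and 7.80% (chromosome 11) of the autosomes. H3K27ac covered 0.444% of X and between 2.09% (chromosome 18) and 4.24% (chromosome 19) of the autosomes. Per base, X had 4.38 times the H3K27me3 coverage and 0.152 times the H3K27ac coverage of the autosomes. It is 6.49% of the sequence and held 23.3% of all bases under H3K27me3 and 1.04% of those under H3K27ac. H3K27ac covered more than H3K27me3 on 4 autosomes, chromosomes 3, 10, 12 and 16. Over the 19 autosomes, coverage went with coding genes per megabase, with a Spearman rho of 0.709 for H3K27ac and 0.833 for H3K27me3.

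**Figure D3:**
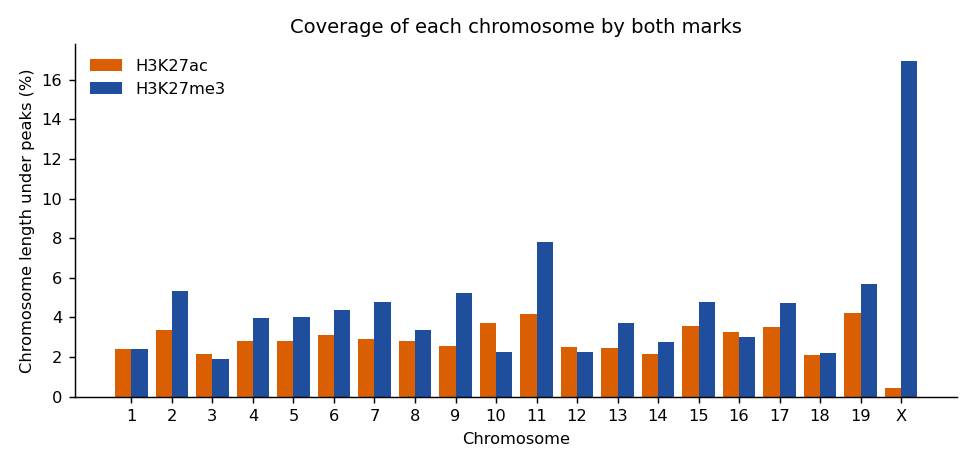
Percent of each chromosome under H3K27ac (orange) and H3K27me3 (blue) peaks on the y axis, for chromosomes 1 to 19 and X on the x axis, 1 library a mark. X has the tallest H3K27me3 bar at 16.9% and the lowest H3K27ac bar at 0.444%.

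The methylation of X consisted of many peaks with a median width and fold near those on the autosomes. X held 23495 H3K27me3 peaks, 137 per megabase. Their median width was 751 bp, against 717 bp on the autosomes, and their median fold 3.66 against 3.46. Wide peaks were a smaller share of the peaks, with 616 of 23495 at 5 kb or more on X and 3264 of 64542 on the autosomes. Per base they were denser on X, which is 6.49% of the sequence and held 616 of all 3880 such peaks. Distal summits were more frequent on X, at 48.1% against 41.6%. More than 300 kb were covered in 43 of its 172 megabases, while 60 had no H3K27me3 at all. The coverage of its megabases went with their share of coding gene bodies, with a Spearman rho of 0.652. Of 966 coding genes on X, 560 (58.0%) had H3K27me3 at an end and 120 (12.4%) had H3K27ac. On the autosomes 24.2% and 27.2% did. H3K27me3 covered more than 50% of the body of 144 of 567 X genes of 10 kb or more (25.4%).

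X also differed in how the marks met and in its peaks of EZH2 and SIRT1. Of its 746 H3K27ac peaks, 196 touched H3K27me3 (26.3%, 23.2 to 29.5), and 3.02% (2.88 to 3.17) did on the autosomes. H3K27me3 covered 16.9% of X and 3.87% of the autosomes, so these shares have different baselines. In bins of 10 kb, H3K27me3 was in 63.2% of X bins with H3K27ac and in 43.5% of all X bins. On the autosomes it was in 9.61% of bins with H3K27ac and in 11.7% of all bins. Of coding starts with H3K27ac, 21 of 110 on X (19.1%, 12.8 to 27.4) also had H3K27me3, and 135 of 4353 on the autosomes did (3.10%, 2.63 to 3.66). Of all 817 coding starts on X, 349 had H3K27me3 only and 21 had both marks. Of 16456 on the autosomes, 3223 had H3K27me3 only and 135 had both. In the EZH2 library from untreated wild-type cells, an EZH2 peak overlapped 1306 of 3264 autosomal H3K27me3 peaks of 5 kb or more (40.01%, 38.3 to 41.7). On X, 11 of 616 held one (1.79%, 1.00 to 3.17). The EZH2 list has 124 of its 9581 peaks on X, and 1731 of all its peaks had a q of at most 0.05. The low share on X was not particular to EZH2. A SIRT1 peak from Ezh2 wild-type cells overlapped 39.6% of these wide peaks on the autosomes and 4.22% on X. For SIRT1 from p53 wild-type cells it was 36.7% and 2.11%, and for p53 0.460% and 0.325%. Of 74346 SIRT1 peaks from Ezh2 wild-type cells, 514 lay on X and 247 had a q of at most 0.05.

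Genes on X kept H3K27ac in places. Xist, the RNA that coats the inactive X in female cells, had an H3K27ac peak of 3.67-fold at chrX:103481814-103482449, near its start, and no H3K27me3 at an end. The antisense gene Tsix had H3K27me3 of 7.91-fold. Among 30 coding genes with H3K27ac at an end and no H3K27me3 at an end or in the body, the highest were Tfe3 (5.55), Hnrnph2 (5.54), Mid1ip1 (4.65), Dnase1l1 (4.48) and the complement gene Cfp (4.31). Kdm6a, which encodes an H3K27 demethylase, was another (4.17). So were Ddx3x (3.26) and Was (3.44), a gene of the blood cell cytoskeleton. Both marks lay at ends of Kdm5c, Btk, Tlr8, Irak1 and G6pdx, with Irak1 at 6.67-fold H3K27ac and 4.13-fold H3K27me3. These X genes, other than Kdm6a, were chosen after their values were seen. Whether the 2 copies of X in a female cell, or different cells, carried different marks cannot be read from these lists, and the labels give no sex.

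At the scale of a megabase the ranks of the marks went together, and their covered bases did so more weakly. Of 2645 megabases, 1586 (59.96%) had both marks, 167 only H3K27ac, 276 only H3K27me3 and 616 (23.3%) neither. Covered bases per megabase gave a Spearman rho of 0.643 across all bins and 0.684 on the autosomes, with a Pearson r of 0.207 and 0.346. Both followed the share of coding gene bodies, with a rho of 0.448 for H3K27ac and 0.475 for H3K27me3. The relation weakened in smaller bins. The rho was 0.254 in bins of 100 kb, where Pearson r was 0.00195, and −0.03 in bins of 10 kb, where X alone gave 0.04. Of bins of 10 kb with any mark, 4.40% had both, and of bins of 1 Mb 78.2%. The 616 megabases with neither mark enter the ranks as ties at 0, and a rho without them was not computed. Bins are not independent and share mappability, and each correlation describes these libraries only.

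**Figure D4:**
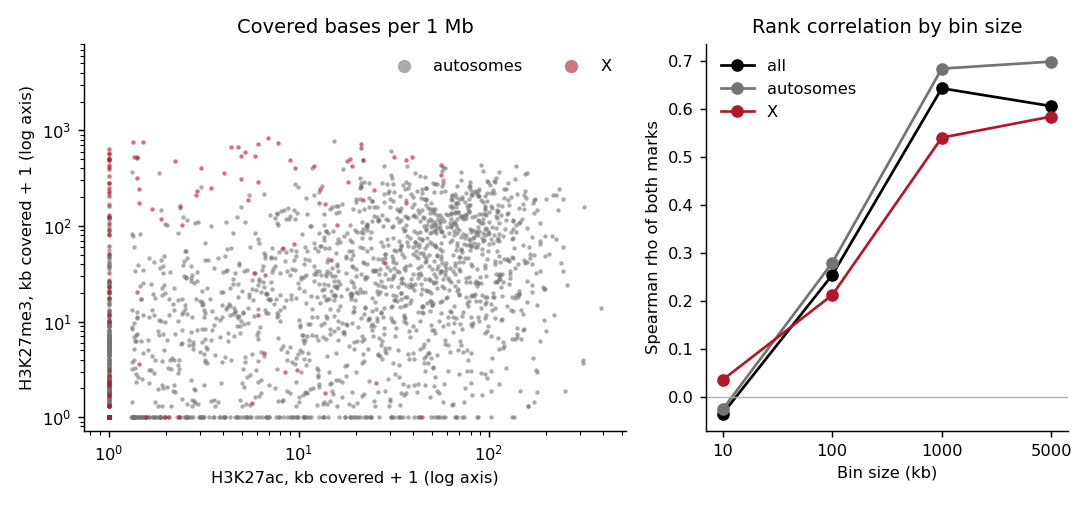
Left, kilobases under each mark in 2645 bins of 1 Mb, plus 1 and on log axes, with H3K27ac on the x axis and H3K27me3 on the y axis; autosomes are grey and X is red. Right, the Spearman rho between marks on the y axis by bin size in kb on the x axis, from near 0 at 10 kb to 0.643 at 1 Mb for all chromosomes.

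The sets of megabases richest in each mark overlapped in part. Of all 2645, the 264 megabases richest in H3K27ac held 47.9% of its bases, the 264 richest in H3K27me3 held 58.8% of its bases, and 57 were in both sets. The most acetylated, chr16:24000001-25000000, had 390 kb under H3K27ac and 12.7 kb under H3K27me3 and lay over Lpp. Next were the megabases of Ptpn1 and B4galt5 on chromosome 2 (315 kb), St3gal1 on chromosome 15 (313 kb) and Btg1 and Eea1 on chromosome 10 (312 kb). Of the 5 richest in H3K27me3, 4 lay on X, the first at chrX:99000001-100000000 with 822 kb over Eda and Efnb1. The richest autosomal one, chr9:61000001-62000000, had 780 kb, over Tle3, Paqr5 and Kif23. The next were the megabase of HoxB on chromosome 11 (612 kb) and that of Ccnd1, Fgf3, Fgf4 and Fgf15 on chromosome 7 (487 kb). The megabase with most of both, chr6:89000001-90000000, had 232 kb of H3K27ac and 242 kb of H3K27me3, over Plxna1, Txnrd3 and Chchd6. The megabase of the interferon receptor genes Ifnar1, Ifnar2, Ifngr2 and Il10rb on chromosome 16 had 245 kb and 190 kb, and the next along that chromosome, with Runx1, had 200 kb and 189 kb.

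Long stretches carried no peak of either mark. There were 418 stretches of at least 1 Mb, 945 Mb in all or 35.9% of the sequence. The 5 longest measured 13.9, 12.02, 10.7, 9.61 and 7.75 Mb. The first, chrX:115826571-129749832, held 20 coding genes, among them Pcdh11x, and the second, chrX:23696802-35711895, held 52, many of the Btbd35f family. The third, on chromosome 1, held 7 coding genes, among them the neuronal adhesion genes Cntnap5a, Cdh7 and Cdh19. The fourth, on chromosome 14, held 5, with Pcdh9 and Klhl1. The fifth, on X, held 16, with the neuronal adhesion genes Slitrk2 and Slitrk4. Repeated sequence that reads cannot be placed in also has no peaks, and its part was not tested.

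Along the chromosome the marks alternated in blocks. Of 139599 pairs of neighbouring peaks, 8.22% joined unlike marks, 9.32% on the autosomes and 2.94% on X. The autosomes held 50836 H3K27ac and 64542 H3K27me3 peaks, and X held 746 and 23495. With so few H3K27ac peaks, X can have few unlike pairs in any order. These shares thus have different baselines and do not show that the marks are more separate on X. Peaks of a mark followed each other in runs, with a mean of 8.98 peaks in 5742 H3K27ac runs and 15.3 in 5747 H3K27me3 runs. The medians were 3 and 4 peaks, 32.04% and 25.9% of runs had a single peak, and on the autosomes alone the H3K27me3 mean was 11.97. Runs of at least 5 peaks held 87.9% of H3K27ac and 94.0% of H3K27me3 peaks. The longest H3K27ac run, chr10:95940945-96909222, had 202 peaks over 0.968 Mb around Btg1, an antiproliferative gene, and Eea1. The third longest, with 165 peaks, lay around Klf6. The longest H3K27me3 run had 1137 peaks, chrX:85882175-94121889. The longest on an autosome had 219 peaks, on chromosome 8 around the forkhead genes Foxf1, Foxc2 and Foxl1. Another on chromosome 15 had 190 peaks over the type II keratin genes.

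Neighbours of unlike marks stood further apart. The median gap was 9092 bp between unlike marks, counting 1661 overlapping pairs as 0, and 1128 bp between H3K27ac peaks and 1029 bp between H3K27me3 peaks. Of unlike pairs, 11.7% were over 100 kb apart, and of like pairs 1.39% and 1.43%. Outward from autosomal H3K27ac domains of at least 2 kb, H3K27me3 covered 1.04% of the first kilobase, 3.54% of the tenth and 7.70% of the kilobase at 99 to 100 kb. Outward from H3K27me3 domains, H3K27ac covered 1.00%, 2.91% and 6.21%. The mark of the domain itself covered 31.2% and 29.98% of the third kilobase and 11.03% and 15.9% at 99 to 100 kb. The autosomes as a whole were covered to 2.93% by H3K27ac and 3.87% by H3K27me3. The coverage of the other mark was thus below that level in the first kilobases and above it from 12 kb outward of H3K27ac domains and from 10 kb outward of H3K27me3 domains.

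**Figure D5:**
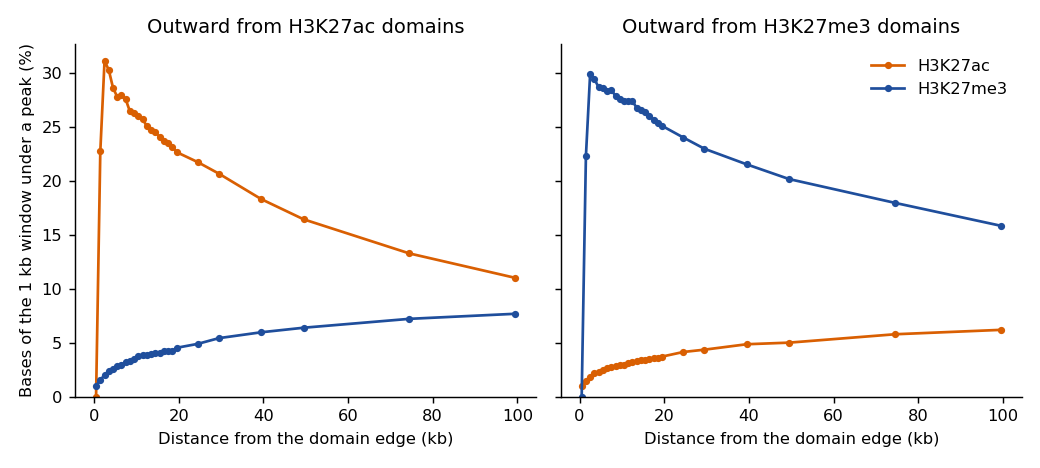
Percent of bases under each mark in windows of 1 kb, on the y axis, by distance from the edge of autosomal domains of at least 2 kb, in kb on the x axis, for H3K27ac domains (left) and H3K27me3 domains (right). The first kilobase has none of the domain's own mark by construction, and the opposite mark climbs from 1.04% to 7.70% on the left and from 1.00% to 6.21% on the right.

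Gaps between unlike marks often held a gene end. Of 4270 unlike gaps of up to 10 kb, 1118 (26.2%, 24.9 to 27.5) contained the start or end of a gene. Of gaps between H3K27ac peaks 8.93% did, and of those between H3K27me3 peaks 6.83%. Unlike gaps were longer, and length matters. In gaps of 5 to 10 kb the shares were 47.0% (44.4 to 49.7), 28.0% (26.4 to 29.6) and 21.7% (20.6 to 22.8). In gaps of up to 1 kb they were 4.04% (2.94 to 5.55), 4.92% and 3.40%, so the shortest unlike gaps were not above those between H3K27ac peaks. Per 100 kb of gap there were 10.4 gene ends between unlike marks, 6.78 between H3K27ac peaks and 5.12 between H3K27me3 peaks, and 3.76 in the sequence as a whole. Of unlike gaps, 33.7% lay wholly inside a coding gene, fewer than the 54.4% of gaps between H3K27ac peaks and 41.6% of those between H3K27me3 peaks.

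Gene starts in those gaps mostly faced the acetylated side. Of 769 listed starts inside unlike gaps, 521 (67.8%, 64.4 to 71.0) belonged to genes that run toward the H3K27ac peak and 248 to genes that run toward H3K27me3. Of 438 3′ ends in such gaps, 235 (53.7%, 48.97 to 58.3) belonged to genes coming from the H3K27ac side. Several starts of a gene can lie in a gap, so these counts are not of independent genes.

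The widest boundaries, ranked by the narrower of the neighbouring domains, lay between and inside genes. On chromosome 7 an H3K27ac domain at chr7:30408905-30431210 over Nfkbid, Tyrobp and Hcst, the last 2 encoding adaptors of immune receptors, ended 2389 bp before an H3K27me3 domain at chr7:30433600-30473137. That domain lay over Kirrel2, Aplp1 and Nphs1, which encodes the kidney filter protein nephrin. On chromosome 11 an H3K27me3 domain of 62.5 kb over C1ql1 ended 516 bp before an H3K27ac domain of 18.6 kb over Dcakd. Also on chromosome 11, acetylation over Grn, the gene of the lysosomal protein progranulin, gave way within 4824 bp to methylation over Fam171a2 and the platelet integrin gene Itga2b. Dusp3 (H3K27ac, 14.3 kb) and the bone gene Sost (H3K27me3, 14.7 kb) met across 1895 bp. Aup1 and Htra2 met Tlx2 and Dqx1 across 3380 bp on chromosome 6. Boundaries also fell inside genes: on chromosome 6 the synaptic gene Syn2 was under H3K27me3 and, 3565 bp on, under H3K27ac. There were 93 boundaries of up to 5 kb, overlaps included, with both domains at least 5 kb wide.

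A small set of genes carried a different mark at each end. Of 26294 genes of at least 5 kb, 397 (1.51%) had H3K27ac alone at an end and H3K27me3 alone at the opposite end, and 48 of these lay on X. The count fell to 171 with a −log10 q of at least 5. Among 318 with a known direction, H3K27ac was at the start in 165 (51.9%, 46.4 to 57.3). Genes were put in order by the smaller fold of the pair, which sets folds of separate lists side by side and serves only to choose the genes named. Gldc, of glycine breakdown, had 10.7-fold H3K27ac at its 3′ end and 7.41-fold H3K27me3 at its start. Vipr1, a receptor gene for vasoactive intestinal peptide, had 6.60 at the 3′ end and 6.83 at the start. Cd63, a marker of late endosomes, had 6.44 at the 3′ end and 10.8 at the start of its longest annotated extent. Rarg, Plxnb1 and Mical3 had the same arrangement. Vsir, which encodes the immune checkpoint protein VISTA, had the reverse, with 8.28-fold H3K27ac at the start and 5.68-fold H3K27me3 at the 3′ end. A peak at an end can belong to a neighbouring gene that begins there.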

How the data were processed

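Chromatin immunoprecipitation with sequencing was analysed from the peak lists deposited for H3K27ac and H3K27me3, 1 library each. MACS2 and deepTools and the build GRCm38 (mm10) are named per the submitters' processing notes; the aligner, its filters and every version were not given in the sources used here. Per the labels, each list was made from an immunoprecipitation and an input. The authors' deposited values per peak are a fold (ratio) of enrichment and −log10 p and q, and a summit position. The lowest −log10 q was 1.30 (H3K27ac) and 1.31 (H3K27me3), which is a q of 0.05. Fold, q and the score were used to describe, rank or filter peaks within a list; the order of genes with a different mark at each end used the smaller fold of both lists.

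From these, covered bases, widths, overlaps (at least 1 bp), gene positions, bins and neighbouring peaks were computed with Python 3.11.15, numpy 2.4.6, pandas 2.3.3 and scipy 1.17.1; plots used matplotlib 3.10.9. Genes came from a RefSeq table (GRCm38.p6) with 49550 genes on these chromosomes; 26793 have a start and direction in the promoter table, none on chromosome 18, so results by start or direction leave that chromosome out. A gene end is either limit of the gene, with a window of 1 kb. Computations were checked on simulated data. No test was made, since each mark has 1 library; shares have Wilson 95% intervals.

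Genes named are a fixed set of macrophage and developmental genes, the 10 highest folds and largest body shares per mark, genes of the 10 widest domains and boundaries and 5 richest megabases, the 10 leading genes with a different mark at each end, and up to 4 leading members per list. Exceptions within lists, microRNAs, single wide peaks, genes in shared or unmarked regions and the X genes were chosen after their values were seen. Members and lists were chosen with earlier results of these data known. Alternatives were a −log10 q of at least 5, lists of equal length, merging, coding genes only, other windows, gaps and bins, and leaving out X.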

Additional observations from a re-analysis of the deposited data

Results flagged for a closer look

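The H3K27ac list held 22 peaks on chromosome Y, outside the chromosomes compared, and the H3K27me3 list held 0 there. Of the 22, 19 lay beyond 90 Mb. None of the 4 genes Ddx3y, Uty, Kdm5d and Eif2s3y, which have a single copy on Y, had an H3K27ac peak in the body or within 1 kb. The source of these peaks was not tested.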

How the results depend on the processing

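With 1 library a mark no replicate could be left out. No paired analysis was possible because each mark has 1 library and no test was made. Of the alternatives, 14 planned values and 3 added ones stayed the same. That meant within the counting error for shares, within 1.5 times for gene counts, and equal to 3 significant digits for other values. The 14 include H3K27ac values in lists of equal length, which could not move because H3K27ac is the shorter list. The others moved as follows, and the cause was not tested unless the alternative itself holds fewer peaks, genes or bins. With a −log10 q of at least 5, coverage was 52.5 Mb for H3K27ac and 81.6 Mb for H3K27me3, median width 1440 and 1717 bp, and coverage of X over autosomes 0.127 and 3.70. H3K27me3 then had 57.5% of bases in gene bodies and 39.4% distal summits. The overlap of H3K27ac peaks was 1.09%, the megabase rho 0.583, unlike neighbours 11.04%, boundary gaps with a gene end 37.3% and genes with a different mark at each end 171. In lists of equal length, H3K27me3 had a median width of 1102 bp, 56.6% of bases in gene bodies, 41.5% distal summits and an X ratio of 3.93; overlap was 2.32%, rho 0.623, unlike neighbours 9.05% and gaps with a gene end 28.4%. Merging within 1 kb gave 85.1 and 147 Mb and medians of 989 and 942 bp, and merging within 5 kb medians of 2764 and 3826 bp, so the order of the median widths depends on the list. Merging before taking neighbours gave 13.6% unlike pairs. With coding genes only, bases in bodies were 58.4% and 45.9%, distal summits 38.8% and 54.3%, genes with a mark at an end 5744 and 5559, and gaps with a gene end 18.5%. Distal beyond 5 kb gave 19.9% and 31.7%. Counting summits, X over autosomes was 0.211 and 5.24. An overlap of 50% gave 2.92%. Bins of 100 kb gave a rho of 0.254 and bins of 5 Mb 0.606; neighbours within 10 kb were unlike in 4.87%. Gaps up to 5 kb held a gene end in 16.3% and gaps up to 20 kb in 35.5%. Without X, bases in bodies were 68.13% and 56.7% and rho was 0.684. Alternatives chosen after seeing the data were bins of 10 kb, where rho turned to −0.0343, and leaving out X for other values: coverage 72.2 and 95.4 Mb, medians 791 and 717 bp, H3K27me3 distal summits 41.6%, overlap 3.02% and unlike neighbours 9.32%.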

Other observations

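MicroRNA hairpins on X followed the rest of that chromosome. H3K27me3 covered 28 of 86 hairpins on X (32.6%) and 82 of 919 on the autosomes (8.92%), and H3K27ac covered 3 (3.49%) and 96 (10.4%). Of 416 genes named as zinc finger proteins (Zfp), 100 had H3K27ac and 50 had H3K27me3 at an end. Of 384 solute carrier genes, 108 (28.1%) had H3K27ac and 136 (35.4%) had H3K27me3, with both marks at 12. The H3K27ac shares of both families were near that of coding genes. Of 70 protocadherin genes, 17 (24.3%) had H3K27me3, near the share of coding genes, and none had H3K27ac. Transfer RNA genes had H3K27me3 at 86 of 408 (21.1%), near the share of all genes, and H3K27ac at 31 (7.60%). These are families of near-identical copies, so single members are uncertain. Of 20 imprinted genes, 11 (55%) had H3K27me3 and 4 (20%) had H3K27ac, the latter between the 17.8% of all genes and the 26.6% of coding genes.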
